A study of Mus musculus with 4 samples.

Results

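The mRNAs of the mitochondrial calcium uniporter and of the voltage-dependent anion channels (VDACs) were examined in 2 fractions of the mouse heart. The members were named as a list of 9 genes, Mcu, Mcub, Smdt1, Micu2, Micu3, Letm1, Vdac1, Vdac2 and Vdac3, and every listed gene with a row in the deposited table was taken. The table held 8 of them among 15746 genes, and Mcub was not analysed here. RNA had been sequenced from isolated heart mitochondria (mitochondrial 1 and 2) and from a remaining fraction of the heart (rest 1 and 2), with 2 libraries for each fraction. All 4 libraries came from WT hearts without a further treatment or allele in the labels, and the labels give no age, strain or animal for any of them. Nothing in the labels says that the 2 libraries of a fraction came from separate hearts, so the p-values measure the spread between these libraries, which may be technical. Per the methods of the study, the rest fraction is the debris pelleted by a first slow spin of the homogenate, so it is neither whole heart nor cytosol. The isolated mitochondria were exposed to digitonin and RNase A before RNA extraction and were given a fragmentation time of their own, so the effects of these steps and of the fraction cannot be told apart.

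Calcium enters the mitochondrial matrix through the uniporter, a channel of the inner membrane. Mcu encodes its pore, Smdt1 encodes EMRE, the small subunit that the animal channel needs to conduct, and the Micu genes encode EF-hand proteins of the intermembrane space that set the calcium threshold of opening. Mcub encodes a paralogue of the pore that lowers current. Letm1 encodes an inner membrane protein of cation and proton exchange. VDACs are beta-barrel pores of the outer membrane through which calcium, ATP, ADP and metabolites pass before they reach the inner membrane. In the beating heart, matrix calcium stimulates dehydrogenases that feed the respiratory chain. All of these genes are nuclear, and their proteins are made by cytosolic ribosomes.

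Most of these mRNAs had higher normalized counts in the mitochondrial fraction than in the rest fraction, where a normalized count is the number of reads on a gene divided by a factor for its library. In 6 of the 8 genes, Smdt1, Micu2, Letm1, Vdac1, Vdac2 and Vdac3, both mitochondrial libraries lay above both rest libraries, against 27.7% of the 12150 genes tested. No member had both mitochondrial libraries below both rest libraries, against 33.4% of all genes tested. After adjustment over all genes, limma called 1 member higher, Vdac3, where 2.16% of the genes tested were called higher, and 0 members lower, where 1.39% were called lower. At an unadjusted p under 0.05, 5 members were higher (Smdt1, Micu2, Vdac1, Vdac2 and Vdac3; background 14.1%) and 0 were lower (background 16.2%). The median log2 fold change, mitochondrial minus rest, was 0.85 over the 8 members and -0.14 over all genes tested. It was positive for 7 of the 8 members and for 43.8% of all genes. These directions are relative to the size factors of the authors. When each library was instead scaled to its total count, 0 members were called higher and all 8 were called lower, as were 12022 of all 12150 genes tested, while 2 genes were called higher.

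**Figure D1:**
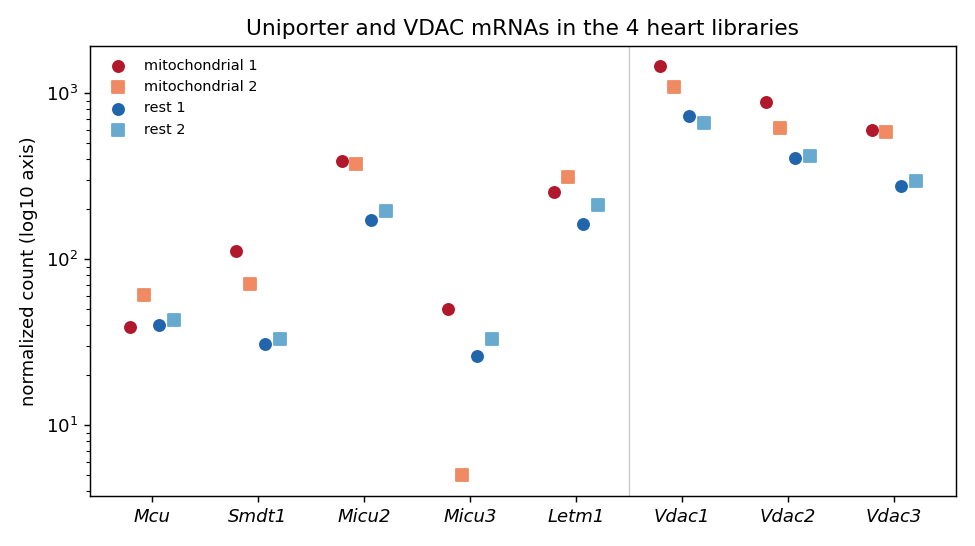
Normalized counts of the 8 genes (log10 axis) in each of the 4 libraries, with 1 point per library, red and orange for mitochondrial and blue for rest. The mitochondrial points lie above the rest points in 6 genes, those of Mcu overlap with them, and Micu3 runs from 5 in mitochondrial 2 to 50 in mitochondrial 1.

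The depth behind these values differed between the fractions. By the spacing of the low values, 1 read was worth 3.87 (mitochondrial 1), 2.55 (mitochondrial 2), 0.264 (rest 1) and 0.365 (rest 2) normalized counts, which gives 23492000 to 47362000 reads on genes per library as an estimate. Transcripts of the mitochondrial chromosome took 93.5 to 97.6% of all counts of a mitochondrial library and 63.2 to 67.5% of a rest library. A count of 3 reads, the limit that a count of 0 allows, thus corresponded to a normalized count of 11.6 in mitochondrial 1, of 7.65 in mitochondrial 2 and of at most 1.10 in either rest library, for counting error only. All 9 cardiomyocyte markers checked were present, and their summed counts of 213325 and 287809 in the mitochondrial libraries spanned the 230555 and 260603 of the rest libraries. Most of this sum was Myh6, and the single markers ran both ways: 5 had both mitochondrial libraries above and 2 below both rest libraries, with a median log2 fold change of 0.59 and values from 1.88 for Tnnt2 to -1.35 for Ryr2, none of them called. The summed counts of the other cell types also differed between the fractions. All 6 fibroblast markers had a positive fold change and 5 had separate groups, with summed counts of 3550 and 8382 against 2236 and 3180, and those of 6 macrophage markers were 322 and 549 against 190 and 275. Endothelial markers summed to 2094 and 2367 in the mitochondrial against 3406 and 3731 in the rest libraries, and Cav1 among them was called lower (-1.36, adjusted p = 0.0469 in limma). Smooth muscle and pericyte markers summed to 1372 and 1594 against 2488 and 3038, but the 4 markers ran both ways. Myh11, with 43 and 61 against 380 and 800, was called lower (-3.40, adjusted p = 0.0427 in limma). Pdgfrb, the 1 marker with a positive fold change, had 492 and 258 against 261 and 238 (0.51). Erythroid markers summed to 50 and 341 against 440 and 824. None of 4 adipocyte markers had a row in the table. The part of these cells in the results was not tested, and in such bulk samples fewer cells of a type and less RNA per cell cannot be told apart.

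The pore gene Mcu (ENSMUSG00000009647, GRCm38 chr10:59446984-59616692, minus strand) was a low-count mRNA with overlapping groups. It had 39 and 61 normalized counts in mitochondrial 1 and 2 against 40 and 43 in rest 1 and 2, the order in which values are given from here on. The lower mitochondrial value thus lay just under both rest values and the higher one above them. The log2 fold change was 0.23 (SE 0.32, 95% interval -0.60 to 1.06, adjusted p = 0.654 in limma, n = 2 against 2), so a difference was not detectable at this depth, which was 10 and 24 reads in the mitochondrial libraries. Without mitochondrial replicate 2 the value was -0.087.

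Smdt1 (ENSMUSG00000022452, chr15:82338959-82349091, plus strand), the gene of the EMRE subunit, had the largest fold change of the 8 genes. Its counts were 112 and 71 in the mitochondrial and 31 and 33 in the rest libraries, so the groups were separate. The gap between 33 and 71 was wider than the spread of the rest libraries but narrower than that of the mitochondrial libraries. The log2 fold change of 1.45 (SE 0.31, unadjusted p = 0.00649) exceeded that of 94.8% of the genes tested, but the adjusted p of 0.0665 from limma missed the threshold of 0.05. The mitochondrial values rest on 29 and 28 reads. Of the 1479 exonic bases of Smdt1, 245 (16.6%) are also exonic in Pheta2 on the same strand, and reads on such bases had been left out by the authors, since those overlapping several genes were not counted.

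Micu2 and Micu3 encode gatekeepers of the same family. Their log2 fold changes had opposite signs, 1.05 for Micu2 and -0.79 for Micu3. The limma interval of Micu3, from -3.56 to 1.98, contained the Micu2 value, so a difference between these genes was not shown. To show how far the mRNAs differ for reads of 75 bases, a coding stretch of 75 bases in which the sequences are alike is given for Micu2 and Micu3. Capitals mark the 26 of 75 bases of Micu3 that differ from Micu2, and the stretch encodes part of an EF-hand.
Micu2: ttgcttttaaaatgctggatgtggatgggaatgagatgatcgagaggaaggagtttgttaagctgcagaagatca
Micu3: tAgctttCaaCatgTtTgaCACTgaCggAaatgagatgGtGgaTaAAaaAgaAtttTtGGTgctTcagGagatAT
In GRCm38 the Micu2 stretch spans an exon junction on the minus strand, chr14:57943588-57943649 in exon 6 and chr14:57932291-57932303 in exon 7 of 12. Along the aligned coding sequences, identity of Micu3 to Micu2 was 55.6%. None of the exonic stretches of 75 bases of Micu2 occurred in another annotated gene, so a perfectly matching read of this length is not shared by Micu2 and another gene.

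Micu2 (ENSMUSG00000021973, chr14:57916261-57999262, minus strand) had 391 and 372 counts in the mitochondrial and 173 and 194 in the rest libraries. Both mitochondrial values lay far above both rest values and the libraries of a fraction were close together. Its log2 fold change was 1.05 (SE 0.17, unadjusted p = 0.00208), and the adjusted p in limma was 0.0514, just outside the threshold. Over the other scalings, filters and pseudocounts, Micu2 was called higher in 5, among them the trimmed mean of M-values (adjusted p = 0.0440 in limma), and lower in 2, the library total (-2.92) and the total of the mitochondrial chromosome (-3.46). Micu3 (ENSMUSG00000039478, chr8:40307458-40386308, plus strand) had 50 and 5 counts in the mitochondrial and 26 and 33 in the rest libraries. The mitochondrial values lay on both sides of the rest values and stood on 13 and 2 reads, the latter under the limit of 3 reads. The log2 fold change of Micu3 was -0.79 with an SE of 1.06 (adjusted p = 0.641 in limma), and it was 0.75 without mitochondrial replicate 2 and -2.34 without mitochondrial replicate 1. Fgf20 and Mir7666 overlap 257 (4.18%) of the 6153 exonic bases of Micu3 on the opposite strand, and strand use in the counting is not given in the sources used here.

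Letm1 (ENSMUSG00000005299, chr5:33739673-33782817, minus strand) had 252 and 314 counts in the mitochondrial and 163 and 211 in the rest libraries. Its groups were separate, but the gap between 211 and 252 was smaller than the spread within either fraction. The log2 fold change was 0.60 (SE 0.23, unadjusted p = 0.0503, adjusted p = 0.165 in limma).

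The VDAC genes carried the highest counts of the 8 genes, and all of them had separate groups. Vdac3 has pseudogene copies elsewhere in the genome, annotated as unprocessed for Vdac3-ps1 and as processed for Gm7591, so sequence decides which reads can be counted for it. A coding stretch of 75 bases without gaps is shown, in which Vdac1, Vdac2 and the pseudogenes Vdac3-ps1 and Gm7591 together differ least from Vdac3. Capitals mark differences from Vdac3.
Vdac3: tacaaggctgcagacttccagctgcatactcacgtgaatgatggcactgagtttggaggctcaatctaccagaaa
Vdac1: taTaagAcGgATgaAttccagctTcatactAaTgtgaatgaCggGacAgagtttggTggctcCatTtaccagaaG
Vdac2: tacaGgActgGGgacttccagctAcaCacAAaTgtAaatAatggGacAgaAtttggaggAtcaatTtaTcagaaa
Vdac3-ps1: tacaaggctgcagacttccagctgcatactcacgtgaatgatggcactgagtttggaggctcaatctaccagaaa
Gm7591: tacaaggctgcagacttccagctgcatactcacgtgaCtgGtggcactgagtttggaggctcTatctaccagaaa
The Vdac3 stretch lies on the minus strand of GRCm38 at chr8:22580340-22580374 (exon 6 of 9) and chr8:22579103-22579142 (exon 7), whereas the copy in Vdac3-ps1 is one uninterrupted block, chr13:18031003-18031077 on the minus strand. Vdac1 differs in 16 and Vdac2 in 17 of the 75 bases, Vdac3-ps1 in 0 and Gm7591 in 3. Over the whole coding sequence Vdac3 was identical to Vdac1 at 66.0%, to Vdac2 at 71.5%, to Vdac3-ps1 at 99.5% and to Gm7591 at 97.2% of the aligned bases. Of the 5487 distinct exonic stretches of 75 bases of Vdac3, 623 (11.4%) also occur in these pseudogenes. The 5487 include stretches of retained introns, whereas each pseudogene spans 853 bases and aligns with the coding sequence. The shared part of the spliced mRNA of 1423 bases is thus larger than 11.4% and was not computed. Reads from the shared stretches align to several places and had been excluded by the authors, so the Vdac3 counts come from the remaining sequence. For Vdac2 the shared part was 73 of its stretches (1.49%), with Gm7832, and for Vdac1 it was 0.

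Vdac3 (ENSMUSG00000008892, chr8:22577075-22593813, minus strand) was the called member. Its counts were 596 and 579 in the mitochondrial and 277 and 297 in the rest libraries, which is 154 and 227 reads against 1048 and 813. The libraries of a fraction differed little and the fractions by about 2.04-fold. The log2 fold change was 1.03 (SE 0.16, adjusted p = 0.0487 in limma). This call was at the edge of the threshold: without any 1 of the 4 libraries the fold change stayed between 0.98 and 1.08 and the adjusted p rose to between 0.0553 and 0.526, with 0 genes of 12150 called in those fits at 1058 to 5657 genes with an unadjusted p under 0.05. The pseudogenes had low counts with the same order, 62 and 66 against 20 and 23 for Vdac3-ps1 (log2 fold change 1.53, adjusted p = 0.0547) and 50 and 43 against 12 and 19 for Gm7591 (1.55, adjusted p = 0.0727). Since they are nearly identical to Vdac3, reads from the genes and the copies may be exchanged. With all 3 merged, the counts were 708 and 688 against 309 and 339, and the log2 fold change was 1.11 (adjusted p = 0.0468).

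Vdac1 (ENSMUSG00000020402, chr11:52360860-52389397, plus strand), the most abundant of the 3 channels, had 1448 and 1092 counts in the mitochondrial and 732 and 661 in the rest libraries. The groups were separate, with a log2 fold change of 0.85 (SE 0.21, unadjusted p = 0.0104, adjusted p = 0.0780 in limma). Vdac2 (ENSMUSG00000021771, chr14:21825238-21845879, plus strand) had 887 and 617 counts against 407 and 416, also with separate groups. Its log2 fold change was 0.84 (SE 0.23, unadjusted p = 0.0158, adjusted p = 0.0950). Neither passed the threshold. Both varied more between the mitochondrial libraries than Vdac3 did, with the higher value in mitochondrial 1. Gm7832, a Vdac2-like pseudogene, had 27 and 28 against 16 and 16 counts (0.75, adjusted p = 0.196).

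**Figure D2:**
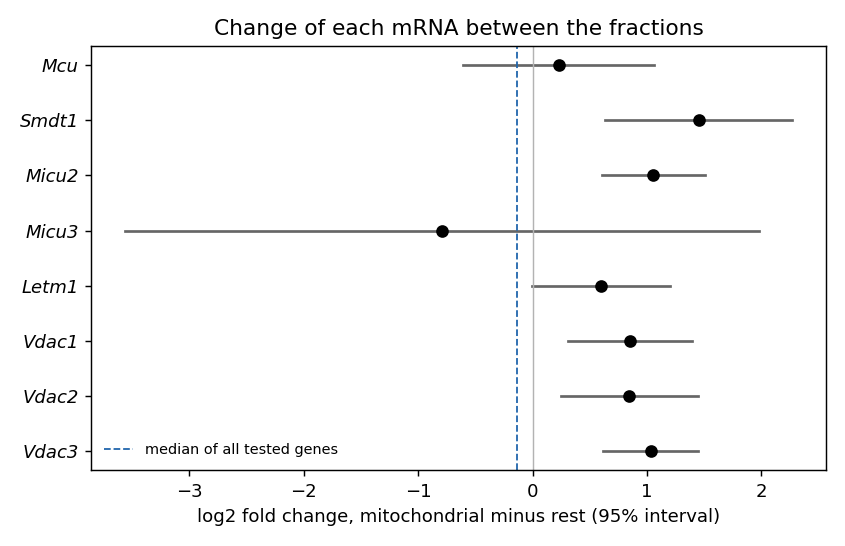
Log2 fold change of each gene, mitochondrial minus rest, with its 95% interval from limma; the dashed line marks the median of all genes tested, -0.14. The intervals of Smdt1, Micu2, Vdac1, Vdac2 and Vdac3 lie above 0, while those of Mcu, Micu3 and Letm1 include it.

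Shares and ratios within a library do not depend on how libraries are scaled to each other. Vdac1 made up 49.4 and 47.7% of the VDAC counts in the mitochondrial and 51.7 and 48.1% in the rest libraries. Vdac2 made up 30.3 and 27.0% against 28.7 and 30.3%, and Vdac3 20.3 and 25.3% against 19.6 and 21.6%. The ranges of the fractions overlapped for each channel, and the mean share of Vdac3 differed by 2.23 percentage points with SDs of 3.52 (mitochondrial) and 1.45 (rest). A shift in the mix of the 3 channels was thus not detected (exact two-sided permutation test, p = 0.667 for each, where 2 against 2 libraries cannot go below 0.333).

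**Figure D3:**
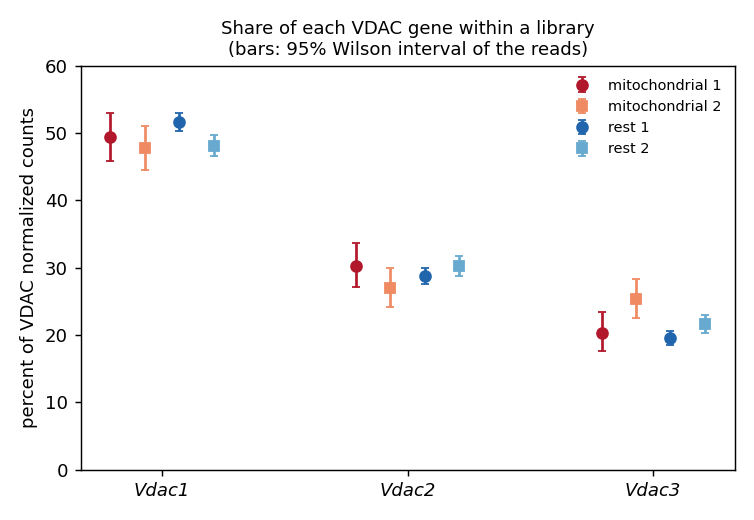
Share of each VDAC gene in the VDAC normalized counts of a library, in percent, with 1 point per library and its 95% Wilson interval from the reads. The shares of Vdac1 lie between 47.7 and 51.7%, those of Vdac2 between 27.0 and 30.3% and those of Vdac3 between 19.6 and 25.3%, with the fractions overlapping.

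Among the uniporter genes the ratios to Mcu spread more widely. Smdt1 had 2.87 and 1.16 counts per count of Mcu in the mitochondrial against 0.775 and 0.767 in the rest libraries, so that both mitochondrial ratios were higher. The ratio of Micu3 to Micu2 was 0.128 and 0.0134 against 0.150 and 0.170, with the low value resting on the 2 reads of Micu3. Letm1 to Mcu gave 6.46 and 5.15 against 4.08 and 4.91. For each of these the exact two-sided permutation test gave p = 0.333, the smallest possible, and p = 0.667 after adjustment over the 7 shares and ratios. Vdac1 to Mcu gave 37.1 and 17.9 against 18.3 and 15.4, with overlapping groups (exact permutation p = 0.667).

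The order of levels between genes was taken per kilobase of the longest annotated protein-coding transcript. On this scale the means of the mitochondrial libraries were 628 normalized counts per kilobase for Vdac1, 413 for Vdac3, 385 for Vdac2, 164 for Micu2, 130 for Smdt1, 53.7 for Letm1, 17.4 for Mcu and 11.1 for Micu3. In the rest libraries the means were 344, 202, 211, 78.8, 45.4, 35.5, 14.4 and 11.9 in the same order of genes. Vdac2 and Vdac3 could not be ordered in either fraction, since their libraries overlapped, and Mcu and Micu3 overlapped in the mitochondrial libraries. All other neighbours were separate in both fractions. Reads that Vdac3 shares with its pseudogenes had been left out, so its level on this scale may be too low. Per kilobase of all exonic bases, which include retained introns, Vdac3 fell behind Micu2, with 108 against 124 in the mitochondrial libraries. Among the members, the VDAC genes thus had levels above each uniporter gene and Letm1 on the transcript scale. The pore gene Mcu had less than its regulators Micu2 and Smdt1 on both scales.

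Fold changes went with transcript length over the whole table. Over 10597 nuclear protein-coding genes, Spearman's rho between transcript length and log2 fold change was -0.43, and over the 8 members it was -0.74, both across genes that share the same 4 libraries and are not independent replicates. Genes under 1500 bases had a median log2 fold change of 0.89 (quartiles 0.37 and 1.36). In that range, Vdac3 with 1423 bases lay between the quartiles and Smdt1 with 705 bases above the upper one. Genes of 1500 to 3000 bases had a median of 0.12 (quartiles -0.39 and 0.58), with Micu2, Vdac1 and Vdac2 above the upper quartile, Mcu between the quartiles and Micu3 below the lower one. Letm1 with 5272 bases, at 0.60, lay above the upper quartile of -0.03 of the genes of 4500 bases or more. The part of length in these values was not tested.

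**Figure D4:**
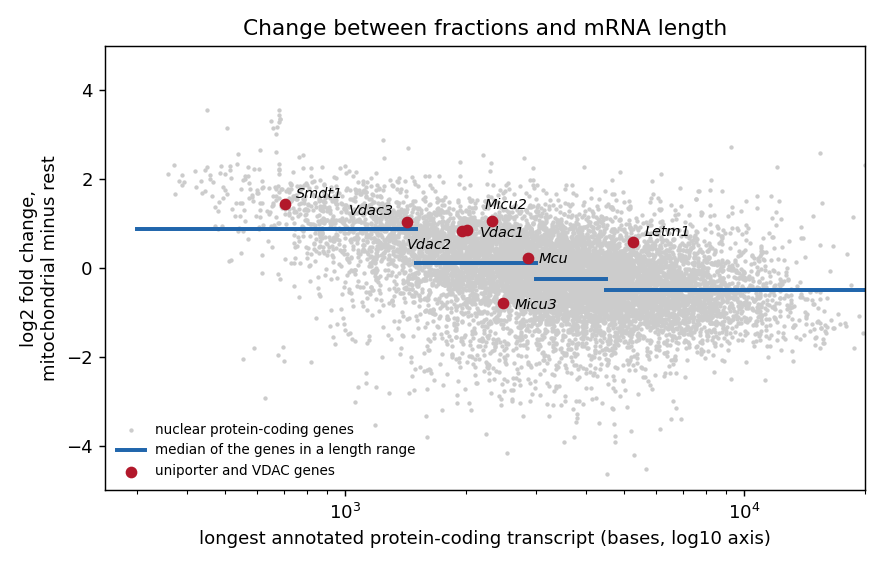
Log2 fold change, mitochondrial minus rest, against the length of the longest protein-coding transcript (log10 axis) for nuclear protein-coding genes in grey, with 15 genes outside the axes, and the 8 members in red. Blue lines mark the medians of 4 length ranges, from 0.89 below 1500 bases to -0.49 from 4500 bases, and 7 of the 8 members lie above the line of their range.

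For each gene the most similar gene was sought by the distance between the 4 log2 values after centring, over 5555 or 5556 genes with a mean above 50. The nearest were Acadm for Vdac1 (distance 0.03), Gsta4 for Vdac3 (0.04), Ubb for Vdac2 (0.04), Dnajc14 for Micu2 (0.04), Gyg for Letm1 (0.05), Taf3 for Mcu (0.08) and Ndufb11 for Smdt1 (0.10). Acadm encodes a dehydrogenase of fatty acid oxidation and had 2959 and 2163 against 1474 and 1335 counts, and Ndufb11, a subunit of respiratory complex I, had 442 and 293 against 137 and 138. Ubb had 1038 and 740 against 486 and 506 counts, and Taf3 had 54 and 82 against 58 and 59. The distance rests on 4 values per gene, and a shared role of near genes was not tested. Among the genes searched, none came close to Micu3, whose nearest, the 5S ribosomal RNA gene n-R5s131, was at 0.60. Micu3 itself lay under the filter of this search, so genes with counts as low as its own were not compared.

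The genes around the channels were read from 6 lists, whose counts stand against the background of all genes tested, of which 2.16% were called higher, 1.39% lower, 27.7% had both mitochondrial libraries above and 33.4% below both rest libraries. Of 12 tested genes of uniporter and inner membrane calcium handling outside the members, 0 were called in either direction, 4 had both mitochondrial libraries above and 3 below both rest libraries, and the median log2 fold change was 0.07. Ghitm, an inner membrane protein of calcium and proton exchange, had 631 and 661 against 369 and 441 counts (0.68, SE 0.18, adjusted p = 0.0884 in limma). Mcur1, a regulator of the uniporter, had 147 and 143 against 128 and 148 with overlapping groups (0.07, adjusted p = 0.813). Of 10 genes for processing and turnover of uniporter subunits, 0 were called, 8 lay above and 1 below, and the median was 0.37. Among these, the subunits of the m-AAA protease, which degrades unassembled EMRE, had 457 and 311 against 382 and 405 counts for Afg3l2 (-0.06, adjusted p = 0.879) and 318 and 288 against 223 and 237 for Spg7 (0.40, adjusted p = 0.199).

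Of 14 tested genes of VDAC partners and of the permeability transition, 0 were called, 7 lay above and 4 below, and the median was 0.13. The adenine nucleotide carrier Slc25a4, which exchanges ATP and ADP across the inner membrane, had 10174 and 8181 against 4485 and 4420 counts (1.03, SE 0.21, adjusted p = 0.0636), and the mitochondrial creatine kinase Ckmt2 had 3002 and 2796 against 1755 and 1696 (0.75, adjusted p = 0.0674). Both had separate groups without passing the threshold. Of 14 genes at contacts between reticulum and mitochondria, 0 were called, 6 lay above and 3 below, with a median of 0.23. Hspa9, the chaperone that links VDAC1 to the inositol trisphosphate receptor, had 3230 and 2375 against 1542 and 1628 (0.81, adjusted p = 0.0934), and Mfn2, a fusion and tethering GTPase, had 2754 and 2018 against 1780 and 1804 (0.40, adjusted p = 0.283).

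The 6 lists held 1 called gene between them, a share near the background, and it was an outer membrane import gene. Of 11 tested genes for import and assembly of beta-barrels, the route by which VDACs reach the outer membrane, 1 was called higher and 0 lower, 6 lay above and 1 below, and the median was 0.67. The called gene, Tomm7, a small subunit of the outer membrane translocase, rose from 41 and 40 counts in the rest to 136 and 135 in the mitochondrial libraries (1.72, SE 0.21, adjusted p = 0.0427). Of 9 genes of mitochondrial dehydrogenases linked to calcium and of their regulators, 0 were called, 5 lay above and 0 below, and the median was 0.65. Pdha1, a subunit of pyruvate dehydrogenase, had 2820 and 2464 against 1547 and 1583 (0.75, adjusted p = 0.0708), whereas Ogdh of the oxoglutarate dehydrogenase had 3803 and 2441 against 4298 and 3262 with overlapping groups (-0.30, adjusted p = 0.530).

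The scale on which fractions are compared set the sign of these differences. On the total without the mitochondrial chromosome, the median gene moved to -0.98, and the log2 fold changes of the members became -0.62 for Mcu, 0.60 for Smdt1, 0.19 for Micu2, -1.59 for Micu3, -0.26 for Letm1, -0.010 for Vdac1, -0.018 for Vdac2 and 0.17 for Vdac3. On the library total, the median gene lay at -3.93 and the members between -4.50 for Micu3 and -2.46 for Smdt1. A scaling moves all genes of a library together, so the place of a member relative to the median gene is set by the data and hardly by the scaling, and is no sign of stability.

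**Figure D5:**
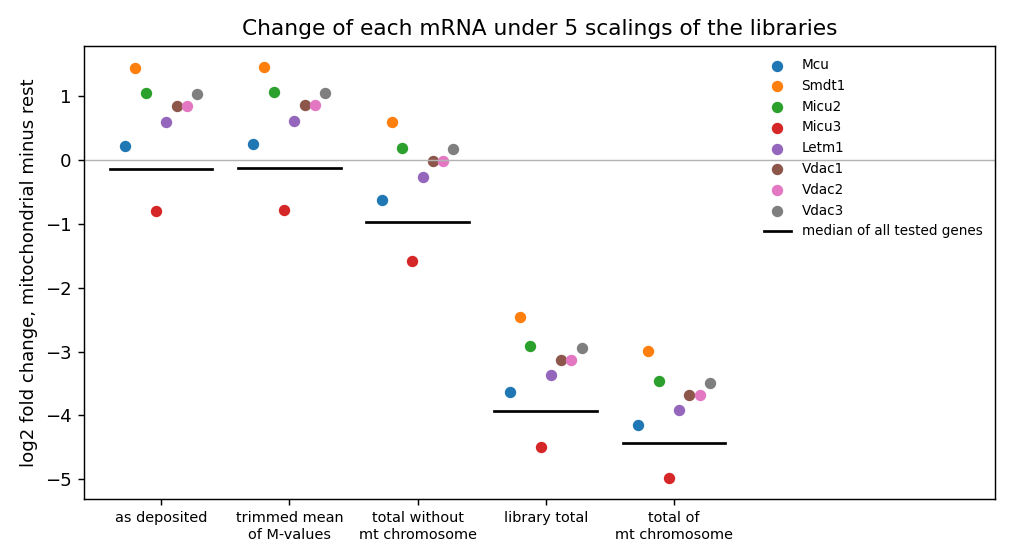
Log2 fold change of each gene, mitochondrial minus rest, under 5 scalings of the libraries, with a black line for the median of all genes tested. The members move with the median, which runs from -0.14 as deposited to -4.43 on the total of the mitochondrial chromosome, as a change of scaling shifts all genes alike apart from the pseudocount.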

How the data were processed

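RNA of 4 WT mouse heart libraries, 2 mitochondrial and 2 rest, was sequenced by the authors as single reads of 75 bases from 10 ng of RNA with a kit that keeps strand. The authors trimmed the reads (Trimmomatic), aligned them to mm10 (STAR), counted those on exons without multi-gene and multi-mapping reads (featureCounts) and normalized with DESeq2. The deposited values are a signal, the read count over the size factor of its library, as a whole number after rounding. Since 1 read is worth less than 1 normalized count in the rest libraries, whole reads could not be recovered and no count model was run. The columns used held per-library values, and the fold changes and p-values of the authors were not used.

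Log2(normalized count + 1) was tested with limma 3.58.1 (empirical Bayes with a mean-variance trend, R 4.3.3) over the 12150 genes that reached a normalized count of 10 in 2 or more libraries, with Benjamini-Hochberg adjustment. All 8 members passed this filter. Lengths, overlaps and sequences came from GENCODE M21 (GRCm38), with coding sequences aligned by mafft 7.526. The step between low values that gives the worth of 1 read was found by maximum likelihood, and both this step and the limma fit were tested on simulated data. For the fit, both simulated fractions had the mean counts of the rest libraries, apart from a small set of genes with a fixed change. This setting differs from the data, so the simulation does not show how well changes like those of the members are found. Named genes were the members, of each list the called genes (at most 3) or else the 2 of highest mean, the nearest gene of each member and the pseudogenes. Members and lists were chosen with earlier results of these data known.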

Additional observations from a re-analysis of the deposited data

How the results depend on the processing

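The number of members called higher was 1 as reported. It was 2 (Micu2 and Vdac3) with recomputed size factors, the trimmed mean of M-values, no filter on low values and a pseudocount of 10, and 4 with a filter at a mean above 50, under which 6 members and fewer genes were tested. It was 0 with the library total, the total without the mitochondrial chromosome, the total of the mitochondrial chromosome, a pseudocount of 0.1 and no trend, and 0 to 0 with any library left out. Members called lower numbered 8 with the library total and with the total of the mitochondrial chromosome, where the median gene lay at -3.93 and -4.43. In a fit that took the replicate number as block, 2 members were called higher (Micu2 1.05, adjusted p = 0.0470). The numbers were not shown to pair the samples, since the deviations of equal numbers correlated at 0.13 across genes.

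The log2 fold changes in the order Mcu, Smdt1, Micu2, Letm1, Vdac1, Vdac2 and Vdac3 were reversed to -3.63, -2.46, -2.92, -3.37, -3.13, -3.13 and -2.94 with the library total and to -4.15, -2.99, -3.46, -3.91, -3.68, -3.68 and -3.49 with the total of the mitochondrial chromosome, and Micu3 passed the threshold at -4.50 and -4.98. With the total without the mitochondrial chromosome Mcu (-0.62), Letm1 (-0.26), Vdac1 (-0.010) and Vdac2 (-0.018) were reversed and Vdac3 (0.17) lost its call. With any library left out, Mcu ran from -0.087 to 0.55 and Micu3 from -2.34 to 0.75, and the fits without mitochondrial replicate 2 turned the sign of both. Micu2 was called with recomputed size factors (1.05), the trimmed mean (1.07), no filter (1.05), a mean above 50 (1.05) and a pseudocount of 10 (1.02), and at a mean above 50 so were Smdt1 (1.45) and Vdac1 (0.85). Vdac3 lost its call with a pseudocount of 0.1 (1.03), no trend (1.03) and with any library left out (0.98 to 1.08). The fits with a library left out assume that the lone library varies like those of the other fraction. Counts called higher and lower over all genes were 262 and 169 as reported, 443 and 316 with the trimmed mean, 279 and 630 without a filter, 790 and 670 at a mean above 50, 536 and 580 at a pseudocount of 10, 24 and 143 without the trend, 470 and 309 with the block, and 129 and 3819 without the mitochondrial chromosome in the total. At a pseudocount of 0.1 limma called 0 and 0, with 1694 and 1754 at an unadjusted p under 0.05. The cause of these shifts was not tested. Merging Vdac3 with its pseudogenes and the transcript length were chosen after seeing the data. edgeR and DESeq2 tests were not run, for want of whole reads. The mitochondrial libraries held 10 to 29 reads on Mcu and Smdt1 and 2 to 13 on Micu3, which limits the precision of these genes.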
